A study of Mus musculus with 10 samples.

Results

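Transcripts of 10 genes were followed across both tissues and both constructs of the study: 7 receptors and a ligand that restrain lymphocytes (Pdcd1, Lag3, Ctla4, Tigit, Havcr2, Cd160, Btla and Cd200), the ectoenzyme gene Entpd1 and the transcription factor gene Tox. They were chosen by symbol, each was measured by 1 probe set, and they are 10 of the 19505 genes with values. The study put CD4+ T cells of C57BL/10 mice, transduced with GFP or with oncogenic Vav1, into immunocompromised mice and profiled tissue 6 months later on single-colour Affymetrix arrays. The series is about VAV1 mutations of cancer and T cell lymphoma. Oncogenic Vav1 gave 4 spleen and 2 lymph node arrays, and GFP gave 2 spleen and 2 lymph node arrays. All groups share the strain, the transfer and the transduced wild-type T cells, and GFP is the control construct. The promoter that drives the transgene, the Vav1 allele, the lymphocytes that the hosts still had, their age, and any sort of the cells before RNA extraction are not given in the sources used here. The descriptions carry 7 animal names, and ONCO2, ONCO3 and CTL2 stand on an array of each tissue. Arrays of the same name were taken to come from 1 animal, on the names alone.

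Inhibitory receptors appear on T cells after stimulation through the T cell receptor and restrain further signalling, either through phosphatases recruited to their tails or by competing for ligands with costimulatory receptors. When antigen or another stimulus persists, as in chronic infection and tumours, T cells keep several of them at the surface at a time, and Tox is a nuclear factor needed for that state, which is called exhaustion. The same receptors are also found on follicular helper and regulatory T cells, Btla is abundant on B cells, Entpd1 and Havcr2 are made by myeloid cells, and Cd160 is found on NK cells and some CD8 T cells. Vav1 is a guanine nucleotide exchange factor that acts just below the T cell receptor, on the way to the transcription factors NFAT and AP-1.

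The cell type label is CD4+ T cells, yet B cell and myeloid transcripts were abundant on every array. The lowest percentile of any array was 95.3 for the B cell receptor chain Cd79a, 94.1 for the macrophage receptor Csf1r, 82.4 for Cd3e and 76.4 for Cd4, counted over all probe sets. Levels are therefore those of mixed tissue RNA, in which a change in the number of cells of a type and a change of RNA per cell cannot be told apart. The array labelled oncogenic Vav1 lymph node replicate 2, from animal ONCO3, stood apart from replicate 1, from animal ONCO2. Its erythroid marker mean lay 4.92 above the GFP lymph node mean on the log2 scale and its T cell marker mean 1.82 below it (-1.82), against 2.61 and -0.77 in replicate 1, and the part of this in the results was not tested. The lymph node values of the 10 genes and of the pathway lists are also given without it.

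NFAT and AP-1 act on promoters and enhancers, so the sequences just before the transcript starts of 4 of the genes with the widest spread between arrays are shown. They are RefSeq promoter windows of GRCm38.p6, 250 bases long, read 5′ to 3′ on the strand of the gene and ending at the base before the start. Capitals mark the NFAT core GGAAA or its complement TTTCC, and the AP-1 motif TGANTCA.
Pdcd1, chr1:94052554-94052803, minus strand: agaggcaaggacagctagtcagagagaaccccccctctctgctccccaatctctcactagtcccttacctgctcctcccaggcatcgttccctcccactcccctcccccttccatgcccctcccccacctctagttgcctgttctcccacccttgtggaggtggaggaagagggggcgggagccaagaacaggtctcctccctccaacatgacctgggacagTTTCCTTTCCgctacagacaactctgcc
Ctla4, chr1:60908775-60909024, plus strand: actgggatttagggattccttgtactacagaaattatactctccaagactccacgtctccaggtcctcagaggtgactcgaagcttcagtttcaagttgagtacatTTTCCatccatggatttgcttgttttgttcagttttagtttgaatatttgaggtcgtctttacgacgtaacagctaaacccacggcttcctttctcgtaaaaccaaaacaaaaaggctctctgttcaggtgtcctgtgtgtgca
Tigit, chr16:43664185-43664434, minus strand: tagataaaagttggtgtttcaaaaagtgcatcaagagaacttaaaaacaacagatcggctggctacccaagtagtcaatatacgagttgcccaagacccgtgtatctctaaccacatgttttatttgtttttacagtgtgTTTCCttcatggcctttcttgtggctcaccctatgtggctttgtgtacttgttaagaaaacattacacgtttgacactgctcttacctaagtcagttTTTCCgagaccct
Havcr2, chr11:46454681-46454930, plus strand: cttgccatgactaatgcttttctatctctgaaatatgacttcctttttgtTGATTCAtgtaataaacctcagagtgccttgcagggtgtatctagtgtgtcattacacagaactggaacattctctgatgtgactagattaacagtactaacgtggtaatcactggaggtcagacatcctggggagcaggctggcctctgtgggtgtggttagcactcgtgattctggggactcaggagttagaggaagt
Of the 10 genes, 8 matched the RefSeq promoters, with 10 windows in all. On either strand, 5 of the 10 windows held the NFAT core, against 55.57% of 32851 mouse promoter windows of the same length, and 1 held the AP-1 motif, against 6.75%. Both are short motifs, their matches did not overlap, and the share with the NFAT core was near that of promoters in general. A match describes letters in this window and is not a binding site.

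In the spleen, 5 inhibitory receptor genes were higher with oncogenic Vav1 (4 arrays) than with GFP (2 arrays), by 3.03-fold to 6.92-fold, and Entpd1 and Tox were higher by smaller amounts. Btla was the exception, at 0.465 times its GFP level, and Cd160 and Cd200 did not pass the test. All values are the deposited log2 values, and a change is the log2 difference of oncogenic Vav1 minus GFP with its standard error (SE). The SE and p-values pool the spread within all 4 groups, so they do not measure the spread of the spleen arrays alone. For Lag3 the standard deviation (SD) was 0.09 in oncogenic Vav1 spleen and 0.02 in GFP spleen. It was 1.46 in oncogenic Vav1 lymph node and 0.01 in GFP lymph node.

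Pdcd1 encodes PD-1, which recruits the phosphatase SHP-2 to damp T cell receptor and CD28 signalling. It measured 8.94, 8.73, 8.82 and 8.73 in oncogenic Vav1 spleen, against 5.97 and 6.41 in GFP spleen. The 2 groups were far apart and did not overlap, and the rise of 2.61 (SE 0.37) passed limma's moderated test (adjusted p = 0.00123). Lag3, a CD4-like receptor that binds MHC class II, had the largest rise of the 10. Its values were 8.61, 8.58, 8.78 and 8.60 in oncogenic Vav1 spleen, against 5.87 and 5.84 in GFP spleen, a change of 2.79 (SE 0.41, limma adjusted p = 0.00138).

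Ctla4 encodes a receptor that takes CD80 and CD86 away from CD28. It measured 8.24, 8.34, 7.87 and 8.28 in oncogenic Vav1 spleen, against 6.05 and 6.21 in GFP spleen. Every oncogenic Vav1 spleen array was above both GFP arrays, with a rise of 2.05 (SE 0.25, limma adjusted p = 0.000625). Tigit competes with the activating receptor CD226 for the ligand CD155. It measured 8.60, 8.00, 7.88 and 8.12 in oncogenic Vav1 spleen, against 6.04 and 5.40 in GFP spleen, where the lower value lay under the 40th percentile of its array. The rise was 2.43 (SE 0.39, limma adjusted p = 0.00204). Havcr2 encodes TIM-3, a receptor of T cells and myeloid cells. It measured 8.30, 8.23, 7.89 and 8.30 in oncogenic Vav1 spleen and 6.60 and 6.57 in GFP spleen, with no overlap and a rise of 1.60 (SE 0.26, limma adjusted p = 0.00238).

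Entpd1 encodes CD39, which degrades extracellular ATP on the way to adenosine and is found on exhausted and regulatory T cells, B cells and macrophages. It measured 10.20, 10.03, 9.91 and 10.07 in oncogenic Vav1 spleen and 9.08 and 9.36 in GFP spleen, a rise of 0.83 (SE 0.23, limma adjusted p = 0.0237). Tox measured 9.64, 9.55, 10.02 and 9.61 in oncogenic Vav1 spleen and 8.55 and 8.54 in GFP spleen, a rise of 1.16 (SE 0.30, limma adjusted p = 0.0171). Neither overlapped between constructs. The Entpd1 call was lost without GFP spleen replicate 1 (adjusted p = 0.187) or replicate 2 (0.0655) and without oncogenic Vav1 spleen replicate 1 (0.0629) or replicate 2 (0.0503), and the Tox call without GFP spleen replicate 1 (0.111) or replicate 2 (0.0932).

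Btla encodes a receptor for HVEM on B cells and resting T cells. It measured 9.50, 9.45, 9.39 and 9.69 in oncogenic Vav1 spleen, against 10.61 and 10.62 in GFP spleen. Its groups did not overlap, and it fell by 1.10 on the log2 scale (SE 0.13, limma adjusted p = 0.000466). All 7 measured B cell markers fell in the same comparison. Their mean lay between 9.60 and 10.06 in oncogenic Vav1 spleen and between 11.08 and 11.14 in GFP spleen, no defining B cell marker was near background, and the part of B cells in the Btla values was not tested. Cd200, the ligand of the myeloid receptor CD200R, measured 7.66, 7.36, 7.54 and 7.83 in oncogenic Vav1 spleen and 8.00 and 7.93 in GFP spleen. Its change of -0.37 (SE 0.15) missed the threshold (limma adjusted p = 0.0994). Cd160, another receptor for HVEM, measured 7.01, 6.99, 7.20 and 7.01 in oncogenic Vav1 spleen and 6.85 and 7.02 in GFP spleen. These values overlapped, and the 95% interval of the difference ran from -0.20 to 0.44.

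In total 7 of the 10 genes rose and 1 fell in the spleen, where 26.8% of the 13393 genes tested changed, 17.1% up and 9.77% down. All 10 passed the filter on low values. Their median change was 1.38, against 0.00 over all genes tested. Arrays of both constructs did not overlap for 9 of the 10, 7 higher and 2 lower with oncogenic Vav1, as was the case for 30.3% of genes upward and 25.2% downward.

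**Figure D1:**
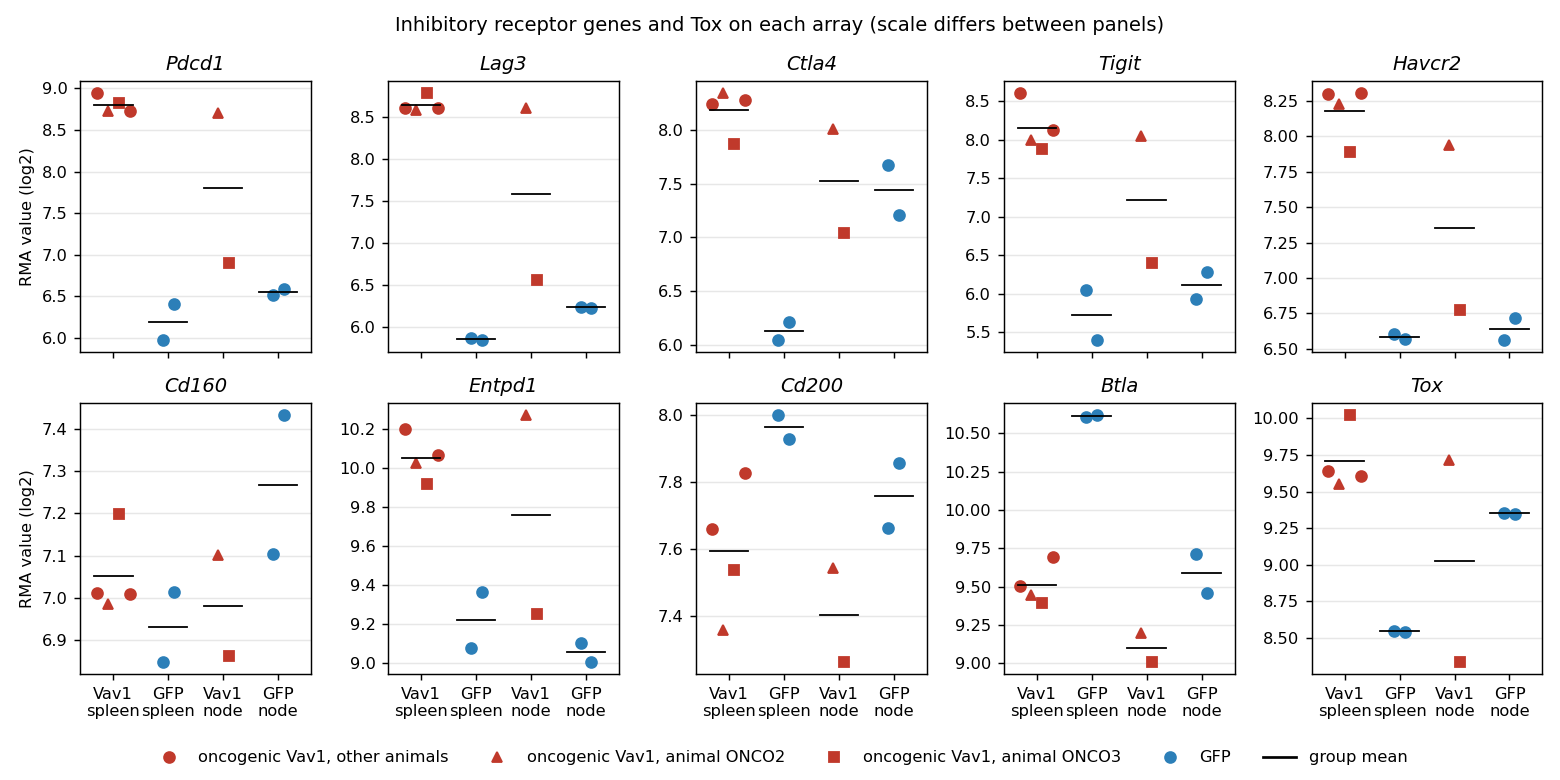
Deposited RMA values (log2) of the 10 genes on each of the 10 arrays, with oncogenic Vav1 in red, GFP in blue and group means as black lines; triangles mark animal ONCO2 and squares ONCO3. The oncogenic Vav1 spleen arrays lie together for Pdcd1, between 8.73 and 8.94, while the 2 oncogenic Vav1 lymph node arrays lie apart, at 8.70 and 6.90.

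Markers of other cell types and the intronic control signal moved with the construct in spleen. Macrophage markers averaged 9.59 to 9.80 in oncogenic Vav1 spleen and 8.23 to 8.25 in GFP spleen, with 5 of 6 markers higher, which stands beside Havcr2 and Entpd1. The T cell marker mean was 8.68 to 8.86 in oncogenic Vav1 spleen and 8.40 to 8.48 in GFP spleen, with 1 of 7 markers higher and 1 lower. All 4 cell cycle genes rose, and their mean was 9.55 to 10.09 in oncogenic Vav1 spleen, against 7.13 to 7.85 in GFP spleen. All 5 neutrophil markers rose, the widest shift of any marker list, with a mean of 10.02 to 10.30 in oncogenic Vav1 spleen, against 6.39 to 6.77 in GFP spleen. The part of these in the results was not tested. The median of the intronic control probe sets, which should carry little signal, was 5.43 to 5.55 in oncogenic Vav1 spleen. It was 5.87 and 5.69 in GFP spleen, so the spleen groups did not overlap in it. Within spleen its part and that of the construct cannot be told apart. With this median as a covariate, 6.84% of genes passed, and of the 10 only Ctla4 (1.29, SE 0.31, limma adjusted p = 0.0382) and Btla (-1.24, adjusted p = 0.015) did. Pdcd1 was then at 1.25 (adjusted p = 0.0577), Lag3 at 1.52 (0.0843), Tigit at 1.38 (0.124), Havcr2 at 0.68 (0.143), Tox at 0.41 (0.535) and Entpd1 at -0.0048 (0.99). The slope of this covariate comes from differences within groups. These were widest between the oncogenic Vav1 lymph node arrays, at 5.27 in ONCO2 and 5.57 in ONCO3, which also lay far apart in Pdcd1 and Lag3. The adjusted spleen values therefore lean on those lymph node arrays.

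In the lymph node, the receptor genes that rose in spleen were high in the oncogenic Vav1 array of animal ONCO2 and close to the GFP arrays in that of ONCO3. None of the 10 genes passed as higher by limma, while 5 did so at an unadjusted p under 0.05 (Pdcd1, Lag3, Tigit, Havcr2 and Entpd1), as did 13.7% of all genes. Btla alone passed, and it was lower. In this comparison 18.7% of genes changed, 7.87% up and 10.8% down. The median change of the 10 was 0.40, against -0.02 over all genes tested. The SE, p-values and intervals of this comparison also pool the spread of all 4 groups. For Pdcd1 the SD was 1.28 in oncogenic Vav1 lymph node, 0.05 in GFP lymph node, 0.10 in oncogenic Vav1 spleen and 0.31 in GFP spleen. For such genes the SE is smaller than the lymph node arrays alone would give.

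Pdcd1 measured 8.70 and 6.90 in oncogenic Vav1 lymph node, against 6.52 and 6.58 in GFP lymph node (1.25, SE 0.43, limma adjusted p = 0.0689). Lag3 measured 8.61 and 6.55 in oncogenic Vav1 lymph node, against 6.23 and 6.22 in GFP lymph node (1.35, SE 0.47, limma adjusted p = 0.0726). In both genes the ONCO2 array was at its spleen level and the ONCO3 array was just above GFP, so the groups did not overlap but the spread within oncogenic Vav1 was wider than the distance of its lower array from GFP. Tigit was 8.05 and 6.40 in oncogenic Vav1 lymph node and 5.94 and 6.29 in GFP lymph node (1.11, SE 0.45, limma adjusted p = 0.118). Havcr2 was 7.94 and 6.77 in oncogenic Vav1 lymph node and 6.56 and 6.72 in GFP lymph node (0.72, SE 0.30, limma adjusted p = 0.137). Entpd1 was 10.27 and 9.25 in oncogenic Vav1 lymph node and 9.10 and 9.00 in GFP lymph node (0.71, SE 0.26, limma adjusted p = 0.0931). All 3 had the same form, with ONCO2 high and ONCO3 next to the GFP arrays. The macrophage marker mean was 9.79 in the ONCO2 and 8.90 in the ONCO3 array, against 8.83 to 8.91 in GFP lymph node, with 1 of 6 markers higher. Neutrophil markers averaged 9.32 to 10.03 in oncogenic Vav1 lymph node, against 6.35 to 6.44 in GFP lymph node, with 5 of 5 higher. Cell cycle genes averaged 9.52 to 10.45 in oncogenic Vav1 lymph node, against 7.42 to 7.48 in GFP lymph node, with 4 of 4 higher. Endothelial markers averaged 7.33 to 7.74 in oncogenic Vav1 lymph node, against 8.68 to 8.74 in GFP lymph node (4 of 4 lower), and stromal markers 5.99 to 6.33, against 8.00 to 8.12 in GFP lymph node (2 of 2 lower). The part of these lists was not tested.

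Ctla4 and Tox differed from these in that GFP lymph node was not low. Ctla4 measured 8.01 and 7.04 in oncogenic Vav1 lymph node and 7.67 and 7.21 in GFP lymph node, so the groups overlapped (0.09, SE 0.29, 95% interval from -0.56 to 0.73). Tox measured 9.72 and 8.34 in oncogenic Vav1 lymph node, on either side of 9.35 and 9.35 in GFP lymph node (-0.32, SE 0.34, 95% interval from -1.08 to 0.43). Btla measured 9.20 and 9.01 in oncogenic Vav1 lymph node and 9.71 and 9.46 in GFP lymph node, a fall of 0.48 (-0.48, SE 0.15, limma adjusted p = 0.0427). This call was lost under several alternatives and when any of 7 of the 10 arrays was left out (adjusted p from 0.00959 to 0.292 over the 10). B cell markers averaged 9.35 to 9.73 in oncogenic Vav1 lymph node and 9.98 to 10.00 in GFP lymph node, with 2 of 7 lower. Cd160 measured 7.10 and 6.86 in oncogenic Vav1 lymph node and 7.10 and 7.43 in GFP lymph node, and Cd200 7.54 and 7.26 in oncogenic Vav1 lymph node and 7.66 and 7.86 in GFP lymph node. Neither passed (Cd160 -0.29, limma adjusted p = 0.276; Cd200 -0.36, adjusted p = 0.204), and neither did without the ONCO3 lymph node array (-0.17, 0.615; -0.22, 0.5). Beside Cd160, CD8 T cell markers averaged 8.53 to 9.24 in oncogenic Vav1 lymph node, against 10.58 to 10.63 in GFP lymph node (2 of 2 lower), and NK cell markers 5.21 to 5.76, against 6.58 to 6.59 in GFP lymph node (2 of 4 lower), and their part was not tested. In the lymph node 5 of the 10 genes were without overlap and higher and 3 without overlap and lower, against 24.2% and 28.8% of all genes. The 3 lower genes are thus near the share of all genes, and Cd160 is among them only by 7.1016 against 7.1034.

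**Figure D2:**
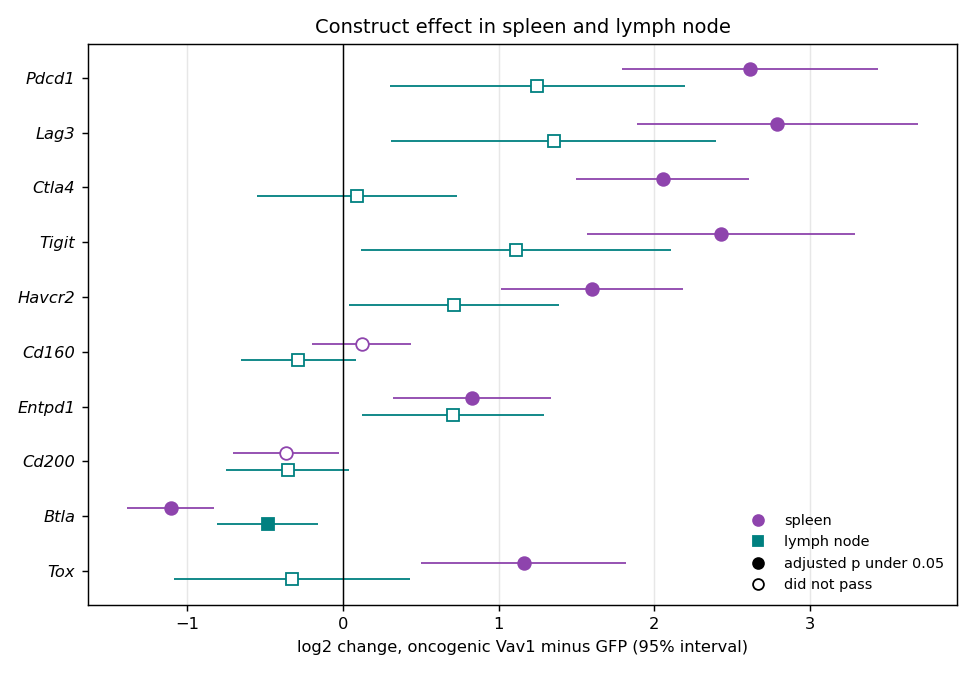
Log2 change of each gene, oncogenic Vav1 minus GFP, in spleen (circles) and lymph node (squares), with 95% intervals from limma; filled symbols passed an adjusted p under 0.05. The spleen changes run from -1.10 for Btla to 2.79 for Lag3, and in the lymph node the intervals are wide and Btla is the only filled symbol. The intervals pool the spread of all groups.

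Leaving out the ONCO3 lymph node array, 5 genes rose in the lymph node (Pdcd1, Lag3, Tigit, Havcr2 and Entpd1), where 11.0% of genes did so, and the single remaining oncogenic Vav1 array was assumed to vary like the other groups. Without both ONCO3 arrays 7 rose, Ctla4 and Tox joining them, against 13.0% of genes, with Pdcd1 at 2.15 (limma adjusted p = 2.8e-06) and Tox at 0.37 (adjusted p = 0.037). Without the ONCO2 lymph node array none rose and 2 fell, Btla and Tox (-1.02, adjusted p = 0.000599), against 20.2% of genes lower. Which of these describes the lymph node cannot be told from 2 arrays.

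The distance between the 2 oncogenic Vav1 lymph node arrays, ONCO2 minus ONCO3, was 2.06 for Lag3, 1.80 for Pdcd1, 1.65 for Tigit, 1.38 for Tox, 1.17 for Havcr2, 1.02 for Entpd1 and 0.97 for Ctla4 on the log2 scale. The median over all genes was 0.07, and 0.23% of genes were higher in the ONCO2 array by at least as much as Lag3. That share leaves out genes that were higher in the ONCO3 array, such as erythroid markers, whose mean was 8.37 in ONCO2 and 10.68 in ONCO3. Cd200, Cd160 and Btla were 0.28, 0.24 and 0.19 apart. The mean of Cd3d, Cd3e and Cd3g, the CD3 chains carried by every T cell, was 1.37 apart, at 9.55 in the ONCO2 array and 8.18 in the ONCO3 array.

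Both animals also gave spleen arrays, which allows the tissues to be set against each other within an animal. In ONCO2, lymph node minus spleen was -0.02 for Pdcd1, 0.03 for Lag3, 0.05 for Tigit and 0.17 for Tox, with 0.04 for the CD3 mean. In ONCO3 the same differences were -1.92, -2.23, -1.48 and -1.69, with -1.67 for the CD3 mean. The 2 tissues of ONCO2 were alike in these genes, and the lymph node of ONCO3 was far below its own spleen. In the GFP animal CTL2 the differences were 0.61, 0.35, 0.24 and 0.80, with 1.25 for the CD3 mean.

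**Figure D3:**
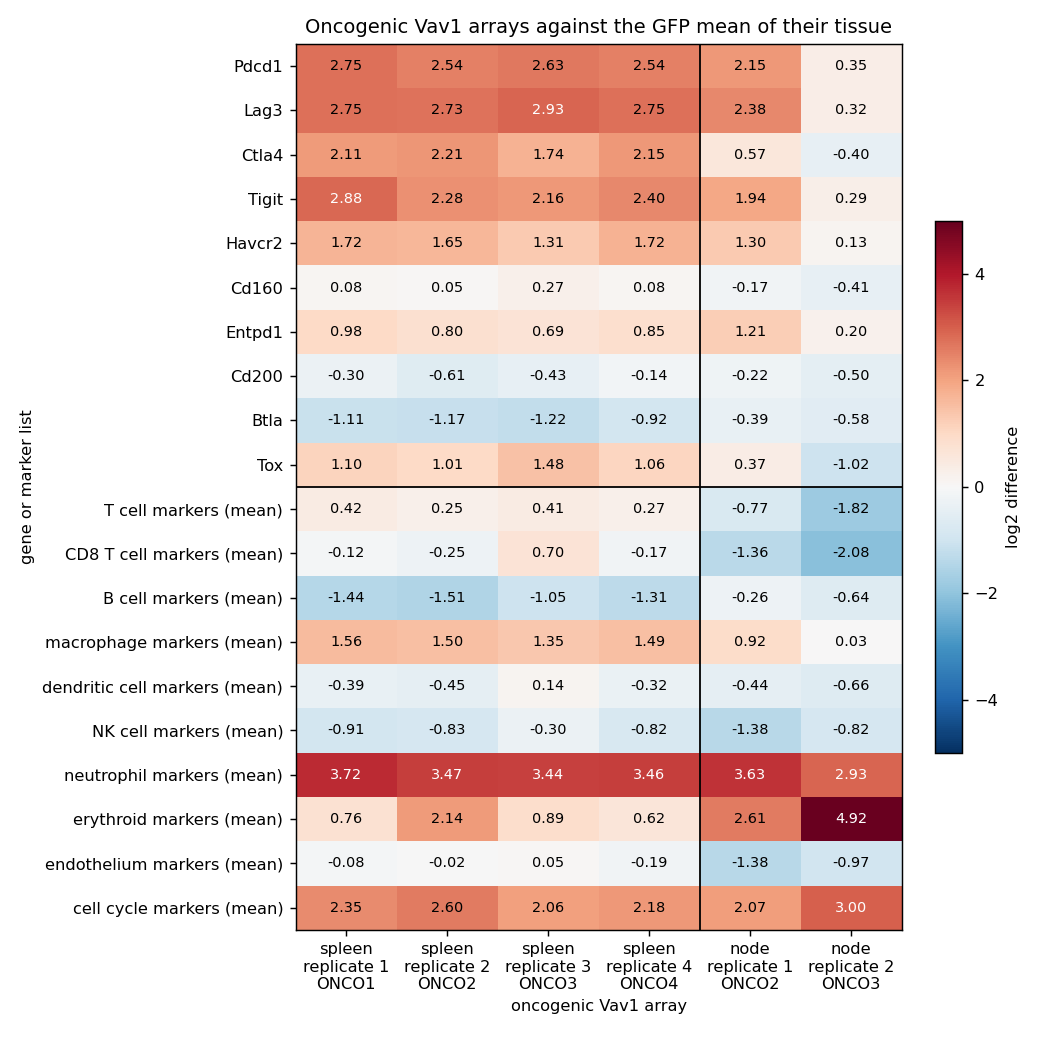
Log2 difference of each oncogenic Vav1 array (columns, with the animal named) from the GFP mean of its tissue, for the 10 genes and, under the line, for the mean of each marker list; red is higher and blue lower. Pdcd1 lies 2.54 to 2.75 above GFP in the 4 spleen arrays, and 2.15 and 0.35 above it in the lymph node arrays.

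Since T cell transcripts differed so much between arrays, each value was also set against the CD3 mean of its own array. Such a value joins different probe sets and has no meaning as a level, but its differences between arrays can be read. The CD3 mean was 9.51 to 9.85 in oncogenic Vav1 spleen, against 9.00 and 9.16 in GFP spleen, and 9.55 and 8.18 in oncogenic Vav1 lymph node, against 10.24 and 10.25 in GFP lymph node. Relative to it, Pdcd1 was -1.03 to -0.72 in oncogenic Vav1 spleen, against -3.03 and -2.76 in GFP spleen, and -0.85 and -1.28 in oncogenic Vav1 lymph node, against -3.72 and -3.67 in GFP lymph node. On this scale the ONCO3 lymph node array lay nearer to the other oncogenic Vav1 arrays than to the GFP arrays, though it was the lowest of them. The low CD3 mean of that array raises all its genes on this scale. Lag3 was -0.94 and -1.63 in oncogenic Vav1 lymph node, against -4.00 and -4.03 in GFP lymph node, and Tigit was -1.51 and -1.78 against -4.30 and -3.96. Ctla4 was -1.54 and -1.14 in oncogenic Vav1 lymph node, against -2.57 and -3.04 in GFP lymph node, and Tox was 0.16 and 0.16 against -0.88 and -0.90.

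The scale itself moved all genes, since CD3 differed between constructs. In the lymph node it shifted the median of all genes to 1.36, and 83.6% of genes passed, 82.9% upward, so that all 10 genes passed as higher there says nothing about these 10. Read against that median, Pdcd1 at 2.63, Lag3 at 2.73, Tigit at 2.49, Havcr2 at 2.09 and Entpd1 at 2.08 lay above it, Ctla4 at 1.46 lay near it, and Cd160 at 1.09, Tox at 1.05, Cd200 at 1.02 and Btla at 0.89 lay below it. In the spleen the shift was -0.55 and 3.41% of genes passed, 1.11% upward and 2.30% downward. There Pdcd1 (2.06, limma adjusted p = 0.000961), Lag3 (2.24, 0.000549), Ctla4 (1.50, 0.0201) and Tigit (1.88, 0.0051) still rose relative to CD3 and Btla fell (-1.66, 0.00736). Havcr2 (1.05, 0.0931), Tox (0.61, 0.182) and Entpd1 (0.28, 0.528) no longer passed.

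**Figure D4:**
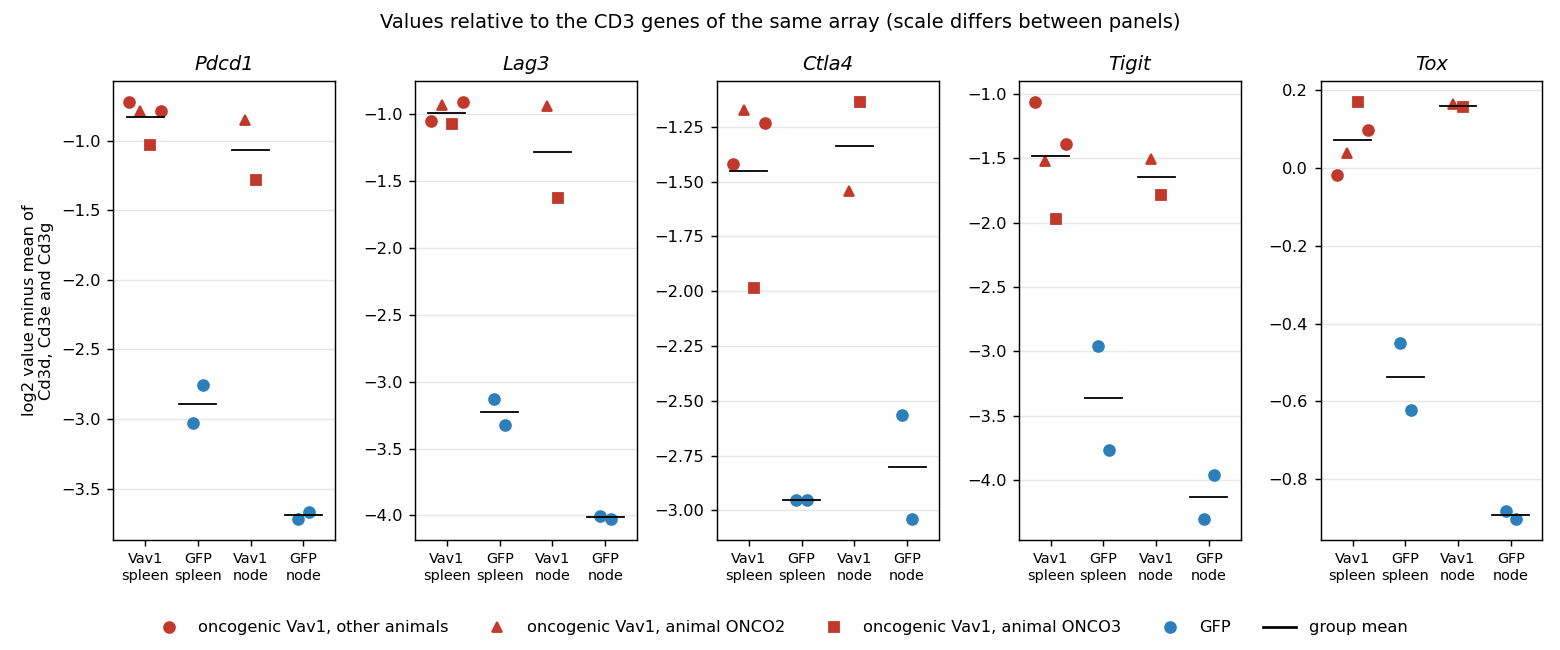
Log2 value of 5 genes minus the mean of Cd3d, Cd3e and Cd3g on the same array, by group, with group means as black lines; triangles mark animal ONCO2 and squares ONCO3. For Lag3 the oncogenic Vav1 lymph node arrays lie at -0.94 and -1.63 and the GFP lymph node arrays at -4.00 and -4.03.

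Over both tissues together, with the animal as a random block, 6 of the 10 genes were higher with oncogenic Vav1 and 2 lower. In this fit 31.7% of genes changed, 17.4% up and 14.3% down. The estimated correlation between arrays of an animal was negative (-0.354), so they were taken as less alike than arrays of different animals. This can make the SE of the construct effect smaller. Lag3 (2.15, SE 0.32, limma adjusted p = 0.00073) and Pdcd1 (2.02, SE 0.30, adjusted p = 0.000674) rose most. Tigit rose by 1.75, Ctla4 by 1.20, Havcr2 by 1.17 and Entpd1 by 0.78. Btla (-0.83) and Cd200 (-0.40, SE 0.10, limma adjusted p = 0.0121) fell, and Tox (0.51, adjusted p = 0.147) and Cd160 (-0.07, adjusted p = 0.641) did not pass. The Cd200 call was lost without GFP spleen replicate 1 (adjusted p = 0.0825) or GFP lymph node replicate 2 (0.0782), and without GFP spleen replicate 1 also those of Ctla4 (0.129) and Entpd1 (0.0503). Relative to CD3, Cd200 was at -0.12 (0.878). The median change of the 10 was 0.98, against -0.03 over all genes.

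Whether the construct effect differed between the tissues was tested as an interaction, which takes the lymph node effect minus the spleen effect. It passed for 8.04% of genes, 7.11% with a negative and 0.933% with a positive difference, and among the 10 for Ctla4 alone (-1.98, SE 0.41, limma adjusted p = 0.0145). The Ctla4 call was lost without GFP spleen replicate 1 (adjusted p = 0.0686) or replicate 2 (0.052) and without GFP lymph node replicate 1 (0.0972), and with the intronic covariate (-1.05, 0.0971). Relative to CD3 it was -0.11 (0.854), where the median of all genes was 1.89. Tox (-1.48, adjusted p = 0.0752), Lag3 (-1.43, 0.196), Pdcd1 (-1.35, 0.183) and Tigit (-1.35, 0.207) had changes in the same direction that did not pass, so a difference between tissues is not shown for them.

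The order of the 4 groups can be read from the tissue contrasts. The group means of Pdcd1, Lag3, Tigit, Havcr2 and Entpd1 were highest in oncogenic Vav1 spleen, then oncogenic Vav1 lymph node, then the GFP groups. The place of spleen above lymph node in this order rested on the ONCO3 lymph node array. Without it, oncogenic Vav1 lymph node minus oncogenic Vav1 spleen was -0.09 for Pdcd1, -0.02 for Lag3, -0.08 for Tigit, -0.25 for Havcr2 and 0.22 for Entpd1. Between oncogenic Vav1 lymph node and oncogenic Vav1 spleen none of the 10 passed by limma, where 0.0373% of genes did, while 7 were lower at an unadjusted p under 0.05, against 5.47% of all genes. Between GFP lymph node and GFP spleen, Ctla4 was higher (1.32, SE 0.31, limma adjusted p = 0.0152) and Btla lower (-1.02, SE 0.15, adjusted p = 0.00107), where 16.0% of genes changed, 11.6% up and 4.41% down, and Tox (0.81, adjusted p = 0.138) did not pass. The Ctla4 call was lost without GFP spleen replicate 1 (adjusted p = 0.0981) or replicate 2 (0.0634), without GFP lymph node replicate 1 (0.155), with the intronic covariate (0.27, adjusted p = 0.547) and relative to CD3 (0.18, adjusted p = 0.701). Btla was highest in GFP spleen, and Cd160 and Cd200 stayed within narrow ranges, of 6.85 to 7.43 and 7.26 to 8.00 over all 10 arrays.

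The genes around these receptors were mixed in direction. Their counts stand against 17.1% of all genes up and 9.77% down in spleen and 7.87% up and 10.8% down in lymph node, and without the ONCO3 lymph node array against 11.0% up and 10.5% down. Of the measured ligands and counter-receptors, 5 of 11 tested rose in spleen and none fell, and in lymph node 1 rose and 2 fell, or 6 and 1 without the ONCO3 lymph node array. In spleen Cd200r1, the receptor for CD200 on myeloid and T cells, rose by 0.98 (SE 0.15, limma adjusted p = 0.00147). Pdcd1lg2, which encodes the PD-1 ligand PD-L2, rose there by 1.23 (SE 0.31, adjusted p = 0.0168). Lgals3, a galectin that binds LAG-3, rose in spleen by 1.82 (SE 0.36, adjusted p = 0.0052), and Lgals9, which binds TIM-3, by 0.52 (SE 0.12, adjusted p = 0.00971). In lymph node the TIGIT ligand genes Pvr (-0.74, SE 0.16, limma adjusted p = 0.00874) and Nectin2 (-0.80, adjusted p = 0.0284) fell, and Tnfrsf14, which encodes the BTLA ligand HVEM, rose (0.71, adjusted p = 0.0306). Without the ONCO3 lymph node array Pvr passed (-0.59, adjusted p = 0.0331), and Nectin2 (-0.46, 0.132) and Tnfrsf14 (0.43, 0.0913) did not.

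Of 7 other inhibitory receptors, 2 rose and 1 fell in spleen, near the share of all genes, and 2 fell in lymph node, or 3 rose and 2 fell without the ONCO3 lymph node array. Lair1, a collagen receptor of many leukocytes, rose in spleen (1.35, SE 0.30, limma adjusted p = 0.00955). Cd96, which shares ligands with Tigit, fell in spleen (-0.75, adjusted p = 0.0145) and in lymph node (-2.45, SE 0.21, adjusted p = 5.21e-05). Of 9 costimulatory receptors, 2 rose and 2 fell in spleen, and 2 fell in lymph node, or 2 rose and 2 fell without that array. Icos (1.39, SE 0.25, limma adjusted p = 0.00354) and Tnfrsf4, which encodes OX40 (1.68, SE 0.35, adjusted p = 0.00678), rose in spleen. Cd226, the activating counterpart of Tigit, fell in spleen (-1.44, SE 0.28, adjusted p = 0.00475) and in lymph node (-1.60, SE 0.32, adjusted p = 0.0067). Cd40lg fell in both as well (-0.71, adjusted p = 0.00749 in spleen, and -2.06, adjusted p = 5.16e-05 in lymph node). T cell markers averaged 7.61 to 8.66 in oncogenic Vav1 lymph node, against 9.41 to 9.45 in GFP lymph node, with 5 of 7 lower and Trat1 under the 40th percentile in oncogenic Vav1 lymph node, and the part of this in the lymph node falls was not tested. Without the ONCO3 lymph node array Cd96 (-2.41), Cd226 (-2.16) and Cd40lg (-1.90) still passed.

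Of 12 signalling genes that act below inhibitory receptors, 2 rose and 3 fell in spleen, where the share that rose was that of all genes, and 4 fell in lymph node, or 1 rose and 3 fell without the ONCO3 lymph node array. The adaptor Dok2 (-1.55, SE 0.16, limma adjusted p = 0.000279) and the diacylglycerol kinase Dgka (-1.09, SE 0.17, adjusted p = 0.00201) fell in spleen. They also fell in lymph node (Dok2 -2.29, limma adjusted p = 3.51e-05, and Dgka -1.77, 0.000253), where they were at -2.11 and -1.49 without the ONCO3 array. Ptpn11, which encodes SHP-2, rose in spleen (0.63, SE 0.12, adjusted p = 0.00414). Of 16 transcription factors of T cell activation and exhaustion, 6 rose and 3 fell in spleen, and 1 rose and 1 fell in lymph node, or 6 and 1 without that array. Eomes (2.58, SE 0.41, limma adjusted p = 0.0019), found in exhausted and memory T cells, and the nuclear receptor Nr4a2, induced by T cell receptor signalling (2.00, SE 0.30, adjusted p = 0.00167), rose in spleen with Id2 (1.01, adjusted p = 0.00125), an inhibitor of E proteins. Id3, the other E protein inhibitor of T cells, fell (-1.32, adjusted p = 0.00189 in spleen, and -1.52, adjusted p = 0.00167 in lymph node). Tbx21, which encodes T-bet, rose in spleen (1.09, SE 0.29, limma adjusted p = 0.0197) and in lymph node (1.35, SE 0.33, adjusted p = 0.0176). Without the ONCO3 lymph node array Id3 and Tbx21 kept these directions in lymph node (-1.41 and 1.73). Of the 2 adenosine pathway genes measured, Nt5e, which encodes CD73 and acts after CD39, rose in spleen (1.51, SE 0.33, limma adjusted p = 0.00829).

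Among the 10 genes, Pdcd1 and Lag3 had the most similar profiles. After each gene was centred on its mean over the 10 arrays, their root mean square difference was 0.158 on the log2 scale, against an SD over arrays of 1.24 for Pdcd1 and 1.33 for Lag3. Each was the nearest of the genes compared to the other, which took in no predicted genes, antigen receptor segments or small RNAs. Tigit lay 0.301 from Pdcd1 and 0.32 from Lag3. The next nearest were Slco4c1 (0.24) and Cd200r4 (0.248) to Pdcd1, and Serpina3f (0.267) and Spon1 (0.287) to Lag3. Ctla4 was nearest to Penk (0.18), Rgs1 (0.205) and Tpi1 (0.208), and Tigit to the myeloid receptor gene Lilr4b (0.237), the neutrophil elastase gene Elane (0.246) and Ly6i (0.252). Havcr2 was nearest to Lilrb4a, another inhibitory receptor gene of myeloid cells (0.0953), to Lair1 (0.162) and to Vmn2r96 (0.174). Entpd1 was nearest to Sdf2l1 (0.0912), Tgm1 (0.107) and Nab1 (0.123), and Btla to Vamp1 (0.147), Kmo (0.149) and Bcar3 (0.164). Tox was nearest to Il2rb, a chain of the interleukin 2 receptor (0.0896), Tagln2 (0.141) and the myeloid and NK cell adaptor gene Tyrobp (0.152). Cd160 lay nearest to Plscr4 (0.0757), Eefsec (0.0886) and Wbp2 (0.0916), and Cd200 to Stat4 (0.0753), Slc5a6 (0.0765) and Meltf (0.0789). The SD over arrays of Cd160 and Cd200 was 0.169 and 0.243, so that small distances mainly show that little varied.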

How the data were processed

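Single-colour Affymetrix arrays of 10 samples in 4 groups were used. The deposited log2 values were made by the authors with RMA, and the submitters' processing notes name R 3.6.3. The genome build, the annotation version and any filter are not given in the sources used here. Of the 29129 probe sets in the table, 19572 carry 1 symbol, and the probe set with the highest mean stood for its gene (19505 genes). Tests took the 13393 genes that exceeded an array's 40th percentile (5.64 to 5.84) on at least 2 arrays.

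The tests were limma 3.58.1 moderated tests with statmod 1.5.0, run in R 4.3.3 (eBayes with a variance trend, two-sided), with Benjamini-Hochberg adjustment over all 13393 genes and an adjusted p under 0.05 as the threshold. The spleen and lymph node changes came from a model of the 4 groups. The change over both tissues came from a model with tissue and construct as additive terms, and the interaction and tissue contrasts from the model of groups, all with the animal as a random block. The fits were tested on simulated data. Animals were told apart by the names in the descriptions (7 names, 3 of them on both tissues), and their number limits the precision.

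The 10 genes, the pathway and marker lists, the tests and the alternatives were chosen with earlier results of these data known. Named genes are the 10, up to 4 genes of each pathway list with the smallest p in spleen or lymph node, and the 3 genes nearest to each of the 10 in profile over the 10 arrays. Marker genes were named as checks of the tissue. Promoter windows come from RefSeq tables of GRCm38.p6. Replicate numbers were not read as pairs, since equal numbers belong to different animals. The alternatives changed the normalization, the filter, the weights, the variance trend, blocks, covariates, a single tissue and arrays left out. A direction under an alternative was read only where the result passed the threshold in at least 1 of the 2 fits.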

Additional observations from a re-analysis of the deposited data

Results flagged for a closer look

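Ctla4 differed in its construct effect between tissues (interaction -1.98, limma adjusted p = 0.0145). This call was lost without GFP spleen replicate 1 (adjusted p = 0.0686) or replicate 2 (0.052), without GFP lymph node replicate 1 (0.0972) and with the intronic covariate (-1.05, 0.0971). Lag3 in oncogenic Vav1 spleen replicate 3 was 8.78, apart from the other 3 arrays of its group, at 8.58 to 8.61. Cd160 in the same array was 7.20, against 6.99 to 7.01 in the other 3. The gap to the nearest array exceeded Dixon's limit in both, in 2 of 10 genes examined in that group; chance marks about 1 in 20.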

How the results depend on the processing

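In the spleen Pdcd1, Lag3, Ctla4, Tigit, Havcr2 and Btla passed whichever array was left out, and 6 to 9 of the 10 genes did. The count of 8 became 5 relative to the CD3 mean and 2 with the intronic control covariate, where Entpd1 was at -0.0048. In the lymph node the count of 1 became 0 with median centring, with the tissue alone, with no filter, with no variance trend and with the replicate block, 2 with array weights, 6 with the intronic control covariate, 7 without both arrays of ONCO3 and 10 relative to the CD3 mean. It was 0 to 5 with an array left out. The sign there turned for Tox without ONCO3 (0.37), and relative to the CD3 mean for Cd160 (1.09), Cd200 (1.02), Btla (0.89) and Tox (1.05), all under the 1.36 median shift of that scale.

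Over both tissues 5 to 9 genes passed with an array left out, against 8 in all. The interaction count of 1 became 2 with median centring, array weights or quantile normalization, 0 with the intronic covariate, 3 without ONCO3 and 4 relative to CD3, where Cd160 (1.54), Entpd1 (1.76) and Cd200 (1.87) turned sign under a median shift of 1.89, and it was 0 to 8 with an array left out. Between tissues of oncogenic Vav1 the count of 0 became 2 with the intronic covariate and 0 to 8 with an array left out. Between tissues of GFP the count of 2 became 4 with the intronic covariate, relative to CD3 or without ONCO3, and was 1 to 4 with an array left out, with Ctla4 not among those called under the covariate or relative to CD3. Pdcd1 was -1.10 with that covariate there, and Havcr2 -1.10 with it and -1.10 relative to CD3. The causes of these changes were not tested.

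With the replicate number as a block, 6 genes passed in spleen, 0 in lymph node, 9 over both tissues, 1 for the interaction, 0 between tissues of oncogenic Vav1 and 2 between tissues of GFP. The replicate numbers belong to different animals, so they mark no pairing.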
